A study of Mus musculus with 2 samples.

Results

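The genes described here are 38 genes of glucose breakdown and of the response to low oxygen, chosen as a named list and matched by symbol to the feature names of both libraries. All 38 were found among 32285 features. Aldoa is listed under 2 gene identifiers, which gives 39 feature rows, and the entry ENSMUSG00000114515 is near 0 in every class, so Aldoa below means ENSMUSG00000030695. The data are 2 libraries of single cells (10x Genomics 3' v3) from the tendon injury site of C57BL/6 male mice aged 8 to 10 weeks. All mice had a dorsal burn of 30% of the body surface and a cut through the Achilles tendon of the left hindlimb, and the site was taken on day 7. Mice of the control group received no radiation. Those of the irradiated group received 7 Gy in a single exposure, limited by a 2 cm collimator to the site. The labels describe arms of 10 mice irradiated on the first or the third postoperative day, and the series text mentions day 3 without making clear which arm was sequenced. The number of mice per library is not stated, so treatment, library and animal cannot be told apart and no p-value is given.

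Cells were not sorted, so classes were rebuilt by clustering and named from markers, with the ending "-like". The control library held 11369 barcodes and 180080740 UMIs (unique molecular identifiers, the counted molecules) and the irradiated library 8302 barcodes and 111753092 UMIs. After filtering, 8744 control cells (median 13242 UMIs) and 7070 irradiated cells (median 10089.5 UMIs) were kept, and 21 kept barcodes occurred in both libraries. Above the limit of 10% mitochondrial UMIs were 14.9% of control and 6.13% of irradiated barcodes. A level is a gene's summed UMIs per 1000000 UMIs of a class and library (CPM). Ratios are log2 values of irradiated over control, each with an exact 95% interval that covers counting error only. A gene is called higher or lower here where both hold: a difference of 1.5-fold or more, and an interval that leaves out equality. This is a rule of size between 2 libraries, not a test of the treatment. Within a class, a pooled level cannot tell fewer expressing cells from less RNA per cell.

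Glycolysis turns glucose into pyruvate in the cytosol, and lactate dehydrogenase turns pyruvate into lactate, which leaves the cell through monocarboxylate transporters. The transcription factors HIF-1 alpha (Hif1a) and HIF-2 alpha (Epas1) raise many of these genes when oxygen is low. Under oxygen, prolyl hydroxylases (Egln1, Egln3) mark them for breakdown through the von Hippel-Lindau protein (Vhl), and Egln3 is itself a HIF target. In skin and tendon wounds, cells far from vessels and cells called in by inflammation, such as neutrophils and macrophages, rely on glycolysis.

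HIF binds DNA at a short core, ACGTG or GCGTG. RefSeq promoter windows (GRCm38.p6, 250 bases before to 50 after the start) were matched by symbol for 34 of the 38 genes. Slc2a3, Epas1, Bnip3l and Ndrg1 were not matched. Both cores were searched on both strands, so CACGT and CACGC also count, and CACGTG counts as 2 overlapping matches. A core of either kind stood in at least 1 window of 30 of the 34 genes (88.2%), against 46.7% of all 27025 genes with a window. For ACGTG alone the share was 67.6% against 21.8%. Taken per window, 80.9% of the 47 windows of the list and 43.8% of all 32851 windows held a core. Stretches of 120 bases are given for 6 genes on which the later results turn. They run 5' to 3' on the gene's strand, with the cores in capitals. Each was picked as the stretch with the most cores in the 250 bases before any listed start of its gene. The core counts are thus maxima of a search, and the distance to the start differs (-145 to -26 for Ldha, -229 to -110 for Egln3). A match is a description of letters and not evidence of binding.
Bnip3 (chr7:138909507-138909626, minus strand, mitochondrial autophagy receptor): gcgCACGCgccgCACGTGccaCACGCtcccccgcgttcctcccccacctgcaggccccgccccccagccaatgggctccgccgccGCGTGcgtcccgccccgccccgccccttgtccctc
Adm (chr7:110627537-110627656, plus strand, the vasodilator peptide adrenomedullin): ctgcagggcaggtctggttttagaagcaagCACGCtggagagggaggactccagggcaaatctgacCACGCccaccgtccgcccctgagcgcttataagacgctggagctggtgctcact
Egln3 (chr12:54203984-54204103, minus strand, HIF prolyl hydroxylase): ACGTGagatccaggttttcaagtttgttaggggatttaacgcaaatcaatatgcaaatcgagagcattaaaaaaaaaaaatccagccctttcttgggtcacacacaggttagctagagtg
P4ha2 (chr11:54100804-54100923, plus strand, collagen prolyl hydroxylase subunit): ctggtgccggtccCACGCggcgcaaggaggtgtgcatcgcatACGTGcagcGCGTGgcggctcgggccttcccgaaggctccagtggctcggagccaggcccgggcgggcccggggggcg
Slc2a1 (chr4:119108625-119108744, plus strand, glucose transporter GLUT1): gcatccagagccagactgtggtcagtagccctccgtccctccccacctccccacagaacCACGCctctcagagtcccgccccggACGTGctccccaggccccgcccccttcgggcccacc
Ldha (chr7:46845659-46845778, plus strand, lactate dehydrogenase A): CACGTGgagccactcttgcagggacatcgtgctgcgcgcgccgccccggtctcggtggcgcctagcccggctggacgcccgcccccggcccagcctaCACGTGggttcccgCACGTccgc
The stretches of Bnip3 and of Ldha each held 5 cores, that of P4ha2 held 3, those of Adm and Slc2a1 held 2, and that of Egln3 held 1, whose first base lies at -229 from the start.

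Every class transcribed the glycolytic enzymes, while transporters, regulators and several HIF-induced genes were strongly unequal among the classes with at least 50 cells (11 classes of control and 10 of irradiated cells). Slc2a3, the high-affinity glucose transporter GLUT3, stood at 429 CPM in control and 581 CPM in irradiated neutrophil-like cells, and the next class, T and NK-like cells, had 44.5 and 52.5 CPM. Slc16a3, the lactate exporter MCT4, had the same top class, with 598 and 545 CPM in neutrophil-like cells against 73.5 and 122 CPM in macrophage and monocyte-like cells. Of the UMIs of Slc16a3 and Slc16a1 (MCT1) together, neutrophil-like cells held nearly all in Slc16a3. Slc16a1 made up 0.999% of the pair in control and 0.884% in irradiated neutrophil-like cells, but 80.4% and 80.8% in keratinocyte-like cells. Pfkfb3, which makes the activator of phosphofructokinase, was also highest in neutrophil-like cells (140 and 177 CPM), as was Ankrd37, a HIF target of unclear function (88.1 and 84.9 CPM).

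The oxygen-sensing genes separated vessels from the other classes. Epas1 reached 453 and 636 CPM in endothelial-like cells and 391 and 428 CPM in pericyte and smooth muscle-like cells, control first. In mesenchymal-like cells it had 27.8 and 32.6 CPM. Of the Hif1a and Epas1 UMIs together, Hif1a made up 45.8% in control endothelial-like cells, 92.2% in keratinocyte-like cells and 99.1% in neutrophil-like cells. Egln3 and Egln1 divided the classes in another way: Egln1 was 20.6% of the pair in control neutrophil-like cells, 66.7% in keratinocyte-like cells and 96.5% in mesenchymal-like cells. Egln3 was highest in neutrophil-like cells (83.7 and 119 CPM). Hif1a was highest in mesenchymal-like cells of both libraries (640 and 471 CPM).

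The remaining classes each had a few genes of their own. Ldhb, the lactate dehydrogenase subunit of oxidative tissues, stood at 138 and 207 CPM in Schwann cell-like cells and at no more than 17.3 CPM in the other classes with at least 50 cells. The small sebaceous gland-like class (41 and 19 cells) had 352 and 407 CPM. Adm was highest in lymphatic endothelial-like cells (101 CPM, control library only, since the irradiated library held 44 such cells). P4ha2 was highest in tendon cell-like (99.6 and 90.8 CPM) and mesenchymal-like cells (87.3 and 113 CPM), the classes that make collagen. In control cells Slc2a1 was as high in keratinocyte-like (218 CPM) as in neutrophil-like cells (209 CPM), with overlapping intervals. In the irradiated library neutrophil-like cells (236 CPM) stood above keratinocyte-like cells (106 CPM).

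**Figure D1:**
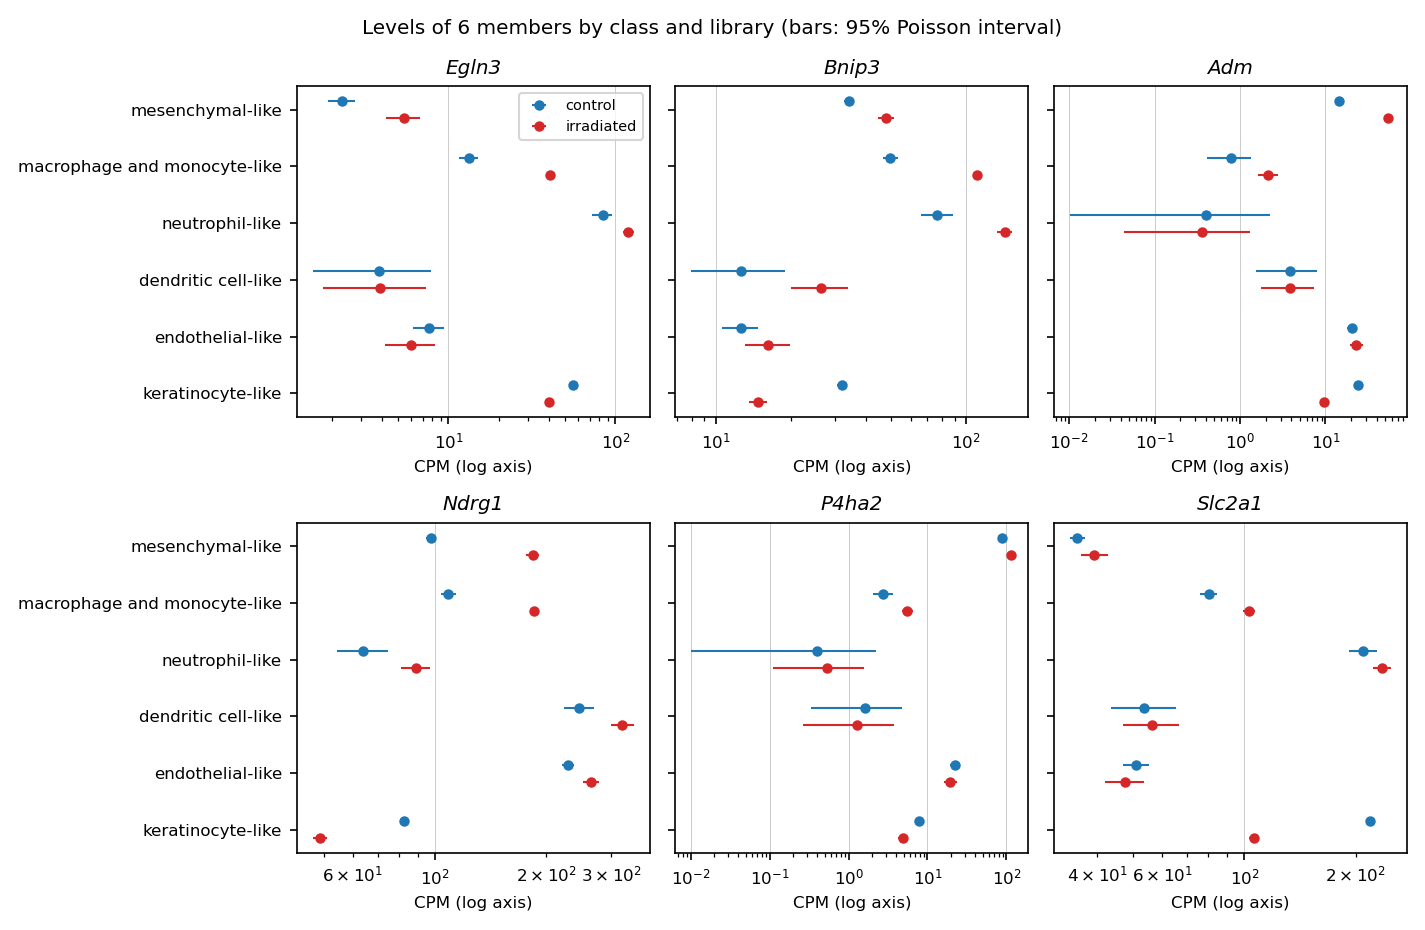
Levels of 6 genes (CPM, log axis) in the 6 classes that were compared, control in blue and irradiated in red, with 95% Poisson intervals. Slc2a1, Bnip3, Adm and Ndrg1 lie lower in irradiated keratinocyte-like cells, whereas Egln3 and Bnip3 lie higher in irradiated macrophage and monocyte-like cells.

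In keratinocyte-like cells of the irradiated library several HIF-induced genes and the glucose transporter gene Slc2a1 were called lower. Of 38 genes with at least 20 UMIs, 0 were called higher and 11 lower, and the median ratio was -0.39. Over all 16300 genes of this class 6.99% were called higher and 7.71% lower, with a median of -0.03. The members' UMIs made up 0.621% of the control total and 0.488% of the irradiated total. Of the 9 HIF-induced genes outside metabolism (Adm to Car9) 6 were called lower, and of each other group 1 or none.

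Adm had 24.3 CPM in control and 9.58 CPM in irradiated cells, a log2 ratio of -1.34 (95% interval -1.52 to -1.18). Aldoc, an aldolase isoform, had 5.27 and 2.43 CPM (-1.11). Bnip3 had 31.9 and 14.8 CPM (-1.11, interval -1.25 to -0.97). Slc2a1 had 218 and 106 CPM, on 11727 and 4060 UMIs, and a ratio of -1.04 (interval -1.09 to -0.99). The other genes called lower were Pfkfb3 (-0.83), Ankrd37 (-0.82), Ndrg1 (-0.76), Car9 (-0.70), P4ha2 (-0.66), Eno1 (-0.61) and Pdk1 (-0.61), a pyruvate dehydrogenase kinase. Short of the 1.5-fold rule were Egln3 (-0.48), Ldha (-0.40), Pgk1 (-0.37), Hif1a (-0.36), Ddit4 (-0.33), Epas1 (-0.23), Hk2 (-0.12) and Slc2a3 (0.08). Eno1 is counted beside its near-identical copy Eno1b, so reads could be split between them, and Gapdh beside the related gene Gapdhs. In each library as a whole, control first, Eno1b had 515 and 569 UMIs against 44264 and 27202 for Eno1. Gapdhs had 114 and 753 UMIs against 172450 and 123378 for Gapdh.

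The lower Slc2a1 level was found in most keratinocyte-like clusters, while Adm and Bnip3 varied among them. Slc2a1 was called lower in 6 of 7 clusters, from 219 to 91.9 CPM in cluster 7 and from 355 to 221 CPM in cluster 8, and it stood at 60.3 and 57.6 CPM in cluster 17. Adm was lower mainly in cluster 13, the cluster led by Krt6b, Krt16 and Sprr1b, where it had 51.8 and 12.7 CPM (-2.03). In cluster 8, led by basal keratins and division genes, it had 30.2 and 24.7 CPM (-0.29), and in cluster 26, led by Lor and Flg of the cornified layer, 25 and 0 UMIs (called lower). Bnip3 was called lower in clusters 7, 13 and 26 and higher in cluster 9, where it had 4.31 and 9.80 CPM. Over all genes, 5.43% were called higher in cluster 9. Of all genes, cluster 7 had 9.44% called lower, cluster 8 had 6.12%, cluster 9 had 9.51%, cluster 13 had 8%, cluster 19 had 7.36% and cluster 26 had 18.9%. Cluster 13 held 18.4% of control and 6.52% of irradiated keratinocyte-like cells. Without cluster 13, 6 genes were called lower, and with the clusters weighted alike in both libraries also 6. The largest cluster of the class was cluster 8 in the control and cluster 7 in the irradiated library. Summed mesenchymal markers in this class had 1276 CPM (control) and 489 CPM (irradiated), with 1 of 14 called higher and 11 lower, none at 0, and their part in the result was not tested.

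Other genes of the pathway were called in both directions. Of the 32 further HIF-induced genes on a wider list, 0 were called higher and 8 lower, among them Lox (-2.49), Loxl2 (-2.03) and Hmox1 (-1.92). Of 12 genes of mitochondrial pyruvate transport and of pyruvate dehydrogenase and its regulators, 2 were called higher, both pyruvate dehydrogenase kinases. Pdk4 had 5.23 and 27.1 CPM (2.37) and Pdk2 had 0.801 and 2.15 CPM (1.42). No pentose phosphate enzyme of 7 was called. Among hexose genes Slc2a9 was called higher (1.07) and Pfkfb1 lower (-0.75). Lox and Loxl2 are collagen-crosslinking enzymes of connective tissue cells. Mesenchymal markers were also lower in this class, and their part in the Lox and Loxl2 values was not tested.

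Injured epidermis makes the keratins Krt6a, Krt6b and Krt16, which mark keratinocytes at a wound edge. Keratinocyte-like cells with over 100 UMIs of these keratins per 10000 are called keratin-high here. They were 387 of the control cells (18.3%) and 86 of the irradiated cells (6.84%). The limit cuts a range: 49 control cells lay just above it and 50 just below (80 to 100), as did 13 and 24 irradiated cells. Keratin-high cells were deeper, with medians of 35205 and 53429.5 UMIs against 19000 and 24945 in keratin-low cells. Cluster 13 held 79.1% of control and 72.1% of irradiated keratin-high cells. Because clusters and keratin groups come from the same cells, the contrast is a description.

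Keratin-high cells carried more glycolytic transcripts than keratin-low cells in both libraries. Members made up 0.896% of UMIs in keratin-high and 0.526% in keratin-low control cells, and 0.725% and 0.455% in irradiated cells. The keratin-low cells were not uniform. Cluster 8, the largest among control keratin-low cells, had a members' share of 0.764% in control and 0.776% in irradiated cells. Cluster 13 had 0.867% and 0.753%, and cluster 17 had 0.284% and 0.283%. In the control library 17 of 37 genes were called higher and 5 lower, against 5.18% and 35.1% of all genes. In the irradiated library 13 of 37 were called higher and 3 lower, against 6.77% and 33.1% of all genes. The median of all genes was -0.42 and -0.45, because keratin-high cells were lower in most genes per UMI. Median-of-ratios scaling centres at 0 the median of the genes with counts on both sides (-0.41 in irradiated cells). It gave 25 higher and 3 lower in the control and 22 and 2 in irradiated cells.

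The enzymes of lower glycolysis had similar ratios. All 5 measured enzymes were called higher in both libraries: Eno1 by 1.24 in the control and 1.16 in irradiated cells, Pgk1 by 0.97 and 0.94, Gapdh by 0.96 and 0.89, Pgam1 by 0.94 and 0.84, and Pkm by 0.72 and 0.62. In control cells Ldha stood at 1047 CPM in keratin-high and 515 CPM in keratin-low cells (1.02), and in irradiated cells at 824 and 448 CPM (0.88). Of the upper enzymes Pfkl (0.97 and 0.90), Tpi1 (0.96 and 0.80) and Aldoa (0.81 and 0.77) were called higher in both. Slc2a1 (0.30 and 0.46) and Hk2, the inducible hexokinase (0.25 and 0.51), were not called.

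The HIF-induced genes were less alike between the libraries. Bnip3 was higher in keratin-high cells by 2.06 in the control (73.0 and 17.5 CPM) and by 0.94 in the irradiated library (25.5 and 13.3 CPM). Adm was higher by 1.91 and 0.83, and Egln3 by 1.64 and 1.06. Ndrg1, a HIF target linked to differentiation, was higher by 1.30 in the control and differed by 0.25 in the irradiated library. Aldoc led the upper enzymes of the control library (1.45). Ankrd37 was the exception, at 1.03 and 1.36. Hif1a differed by 0.27 and 0.32 and Pdk1 by 0.25 and -0.03.

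Some members ran the other way. Ldhb had 3.10 CPM in keratin-high and 15.2 CPM in keratin-low control cells (-2.30), and 9.93 and 18.3 CPM in irradiated cells (-0.88). P4ha1, also a collagen prolyl hydroxylase subunit, was called lower in both (-1.36 and -2.15). Ddit4, an inhibitor of mTORC1 signalling, was called lower in the control (-0.79) and had -0.19 in the irradiated library. Epas1 had -0.48 and 0.11. Slc2a3 had 1.08 and 3.09 CPM in control cells (-1.51), and 0 UMIs in irradiated keratin-high cells, which allows up to 0.648 CPM, beside 3.10 CPM in keratin-low cells. Slc16a1 was called lower in the control only (-0.74 and -0.48), and the difference between the libraries was not tested.

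The wider pathway lists are read against the 35.1% (control) and 33.1% (irradiated) of all genes called lower in this contrast. Of 12 genes of mitochondrial pyruvate transport and of pyruvate dehydrogenase and its regulators, 0 were called higher and 6 lower in the control. Those called lower were led by Pdk2 (-1.40), Pdk3 (-1.05) and Pdp2 (-0.93). In the irradiated library 0 were called higher and 4 lower, led by Pdk2 (-3.48, on 81 and 1 UMIs), Mpc1 (-0.81) and Pdk4 (-0.72). The irradiated count was near the share over all genes. Of the glycogen and hexose genes 0 were called higher and 8 lower in each library, out of 18 and 17 measured, among them Slc2a9 (-3.75 and -1.81) and Pfkfb2 (-1.44 and -1.55). Slc2a4 (-3.10) in the control and Pygl (-1.85) in irradiated cells were the others with the largest ratios. The oxidative pentose phosphate enzymes G6pdx (0.80 and 1.14) and Pgd (0.79 and 1.36) were called higher in both, and Rpia lower (-1.06 and -1.12). Of 32 further HIF-induced genes 8 were called higher and 9 lower in the control, and 6 and 7 in the irradiated library. Hmox1 (2.55 and 1.16), Stc2 (1.79 and 2.12) and Higd1a (1.53 and 1.42) led those called higher. Angptl4 (-1.39) and Rora (-1.31) were among those called lower in the control, and Angptl4 (-2.36), Loxl2 (-1.92) and Rora (-1.22) in the irradiated library.

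**Figure D2:**
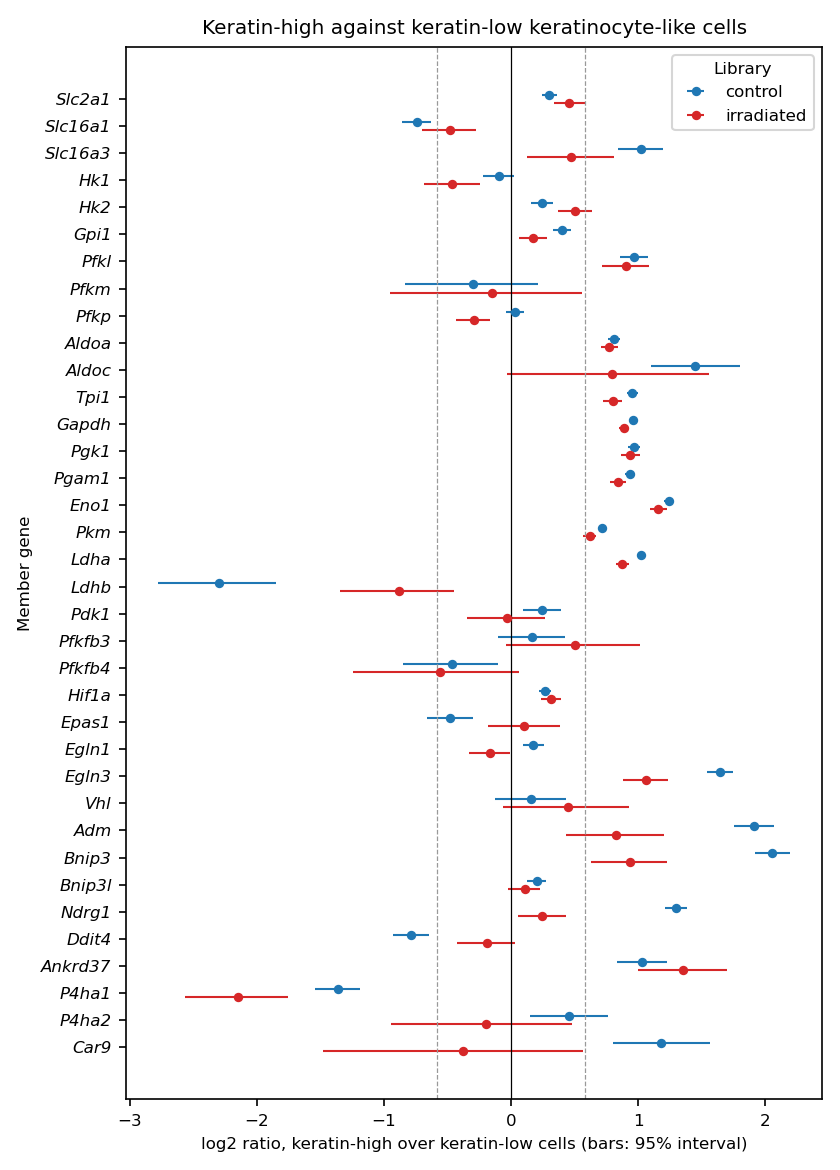
Log2 ratio of keratin-high over keratin-low keratinocyte-like cells for each measured gene (control blue, irradiated red, bars 95% intervals), with dashed lines at 1.5-fold. The glycolytic enzymes from Aldoa to Ldha lie close together in both libraries, with Eno1 at 1.24 and 1.16, whereas Bnip3, Adm and Ndrg1 lie further right in the control.

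Along 5 ranges of the keratin score the members' share was higher in the upper ranges of both libraries, more so in control cells. Members took 0.373%, 0.649%, 0.774%, 0.794% and 1.03% of UMIs in control cells from the lowest to the highest range, and 0.355%, 0.578%, 0.738%, 0.690% and 0.779% in irradiated cells. The highest range held 158 control and 31 irradiated cells. In the lowest range both libraries had nearly the same Ldha (320 and 319 CPM), Egln3 (25 and 25 CPM) and Bnip3 (13.1 and 12.8 CPM). In the highest range Bnip3 had 121 and 36.5 CPM, and Adm 78.9 and 16.4 CPM. Slc2a1 instead differed in every range, from 117 and 68.8 CPM in the lowest to 247 and 121 CPM in the highest, and peaked in the middle range in both libraries (338 and 187 CPM).

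**Figure D3:**
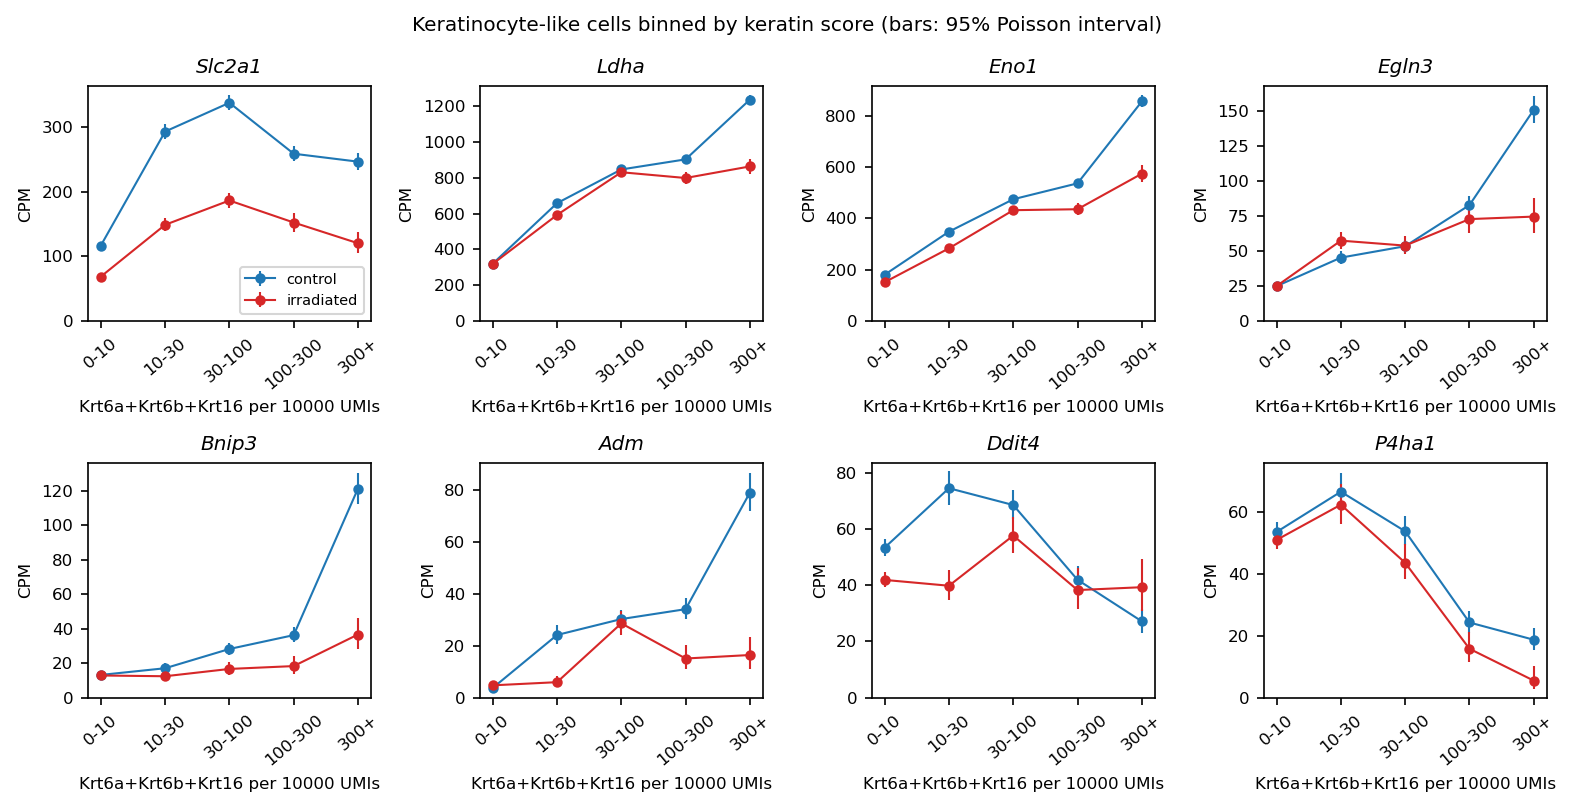
Levels of 8 genes (CPM) in keratinocyte-like cells grouped by Krt6a, Krt6b and Krt16 UMIs per 10000 (control blue, irradiated red, bars 95% Poisson intervals). The libraries part in the highest range for Bnip3 (121 and 36.5 CPM) and Adm, and in every range for Slc2a1, while P4ha1 is lowest at the right in both.

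Between the libraries, the lower HIF-induced genes lay mostly in keratin-high cells. There 1 of 36 genes was called higher and 12 lower (background 5.87% and 9.9%, median of all genes -0.06). In keratin-low cells 0 of 38 were called higher and 5 lower (background 5.8% and 8.53%, median of all genes -0.07). Car9, a cell-surface carbonic anhydrase, had -1.81 in keratin-high cells, with 7.58 and 2.16 CPM on 105 and 10 UMIs. Adm had -1.78 in keratin-high and -0.70 in keratin-low cells. Bnip3 had -1.52 (interval -1.81 to -1.24) and -0.40 (interval -0.57 to -0.22). Ndrg1 had -1.38 and -0.33. For Bnip3 the intervals do not overlap, but they hold counting error only and the difference was not tested.

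Slc2a1 was lower by a similar amount in both groups, with -0.86 (interval -0.98 to -0.74) in keratin-high and -1.02 (interval -1.08 to -0.96) in keratin-low cells. The other 4 genes called lower in keratin-low cells were Pfkfb3 (-0.86), Ankrd37 (-0.72), Adm (-0.70) and Aldoc (-0.70). In keratin-high cells Pdk1 had -0.81 and Egln3 -0.61, while Ldha (-0.35), Hif1a (-0.28), Pgk1 (-0.24), Epas1 (0.23), Hk2 (0.13) and Ddit4 (0.12) were not called. Ldhb was the gene called higher there (1.68, from 3.10 to 9.93 CPM). In keratin-low cells Pdk1 had -0.53, Ddit4 -0.48, Epas1 -0.35, Hif1a -0.33, Pgk1 -0.21, Ldha -0.20, Hk2 -0.13, Egln3 -0.03 and Slc2a3 0.01.

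Macrophage and monocyte-like cells went in the opposite direction for several HIF-induced genes, and no gene was called higher without 1 of its clusters. Of 38 genes 6 were called higher and 1 lower, with a median of 0.19, against 6.19% and 11% of all 14040 genes and a median of -0.11. Egln3 had 13.2 CPM in control and 40.7 CPM in irradiated cells (1.62, interval 1.41 to 1.84). Bnip3 had 49.8 and 111 CPM (1.16, interval 1.05 to 1.27). Adm (1.47, on 13 and 57 UMIs), P4ha2 (1.01), Ndrg1 (0.77) and Slc16a3 (0.73) were also called higher, and Ldhb lower (-0.98). Pgk1 (0.47), Slc2a1 (0.37), Ddit4 (0.36), Hk2 (0.30), Ldha (0.22), Hif1a (0.01), Slc2a3 (-0.02), Pdk1 (-0.12) and Epas1 (-0.47) were not called.

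Cluster 18 stood apart among macrophage and monocyte-like cells. Its leading genes against all other cells were Mmp12, Cxcl3, Arg1, Nos2 and Il1a, genes of activated macrophages. It held 56 control cells (2.82% of the class) and 365 irradiated cells (13.8%). Members made up 1.5% of its control and 1.56% of its irradiated UMIs, while the 5 other clusters of the class lay between 0.357% and 0.720%. In control cells of cluster 18 Egln3 had 160 CPM, against 14.4 CPM in the next highest, cluster 3, and Bnip3 had 414 against 54.1 CPM. Pgk1 had 1177 and 1172 CPM in cluster 18 in the 2 libraries, and Ldha 1007 and 892 CPM. Within cluster 18, 1 of 34 genes was called higher (Hk2, 77 and 141 CPM, 0.87) and 0 lower, against 5.68% and 5.09% of all genes. The clusters were formed on these same cells, so the high levels in cluster 18 describe it and test nothing.

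Without cluster 18, 0 genes of the class were called higher and 3 lower (Ldhb at -0.90, Pfkm at -0.78 and Ankrd37 at -0.71). Egln3 was then at 0.20, Bnip3 at 0.37, Ndrg1 at 0.50, Slc16a3 at 0.34, P4ha2 at -0.49 and Adm at -0.16. With the clusters weighted alike, 1 gene was called higher and 1 lower. Cluster 3, named from the fold over the median cluster, has 4 osteoclast markers (among them Acp5, Atp6v0d2 and Ctsk) and 2 of its own class among its 10 leading genes against all other cells. Without cluster 3, 8 genes were called higher and 3 lower, with Egln3 at 1.8 and Bnip3 at 1.23. Bnip3 was called higher in clusters 2 and 3 (36.2 and 61.9 CPM in cluster 2, 54.1 and 102 CPM in cluster 3), and Egln3 was called higher in cluster 3 (14.4 and 24.2 CPM). Of all genes, 5.42% were called higher in cluster 2 and 4.88% in cluster 3. The largest cluster of the class was cluster 2 in the control and cluster 0 in the irradiated library.

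The sum of 12 neutrophil markers was also higher in this class, with 1938 CPM in control and 5150 CPM in irradiated cells. Of these markers 6 were called higher and 1 lower, with none at 0. Cxcl2 and Mmp8 of this list are also among the leading genes of macrophage and monocyte-like cluster 18. Keratinocyte and mesenchymal markers were lower (809 and 246 CPM, 556 and 131 CPM). The part of these markers in the result was not tested. Of 30 further HIF-induced genes measured, 5 were called higher, among them Ero1l (1.17) and Cited2 (0.79), and 6 lower, led by Loxl2 (-1.99), Tmem45a (-1.60) and Car12 (-1.51). No pentose phosphate gene of 7 and no mitochondrial pyruvate gene of 11 was called. Among glycogen and hexose genes Gpd1 (-1.38), Gyg (-0.74) and Pgm3 (-0.60) were called lower. Median-of-ratios scaling gave 8 higher and 7 lower of the 76 pathway genes, against 5 and 9.

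**Figure D4:**
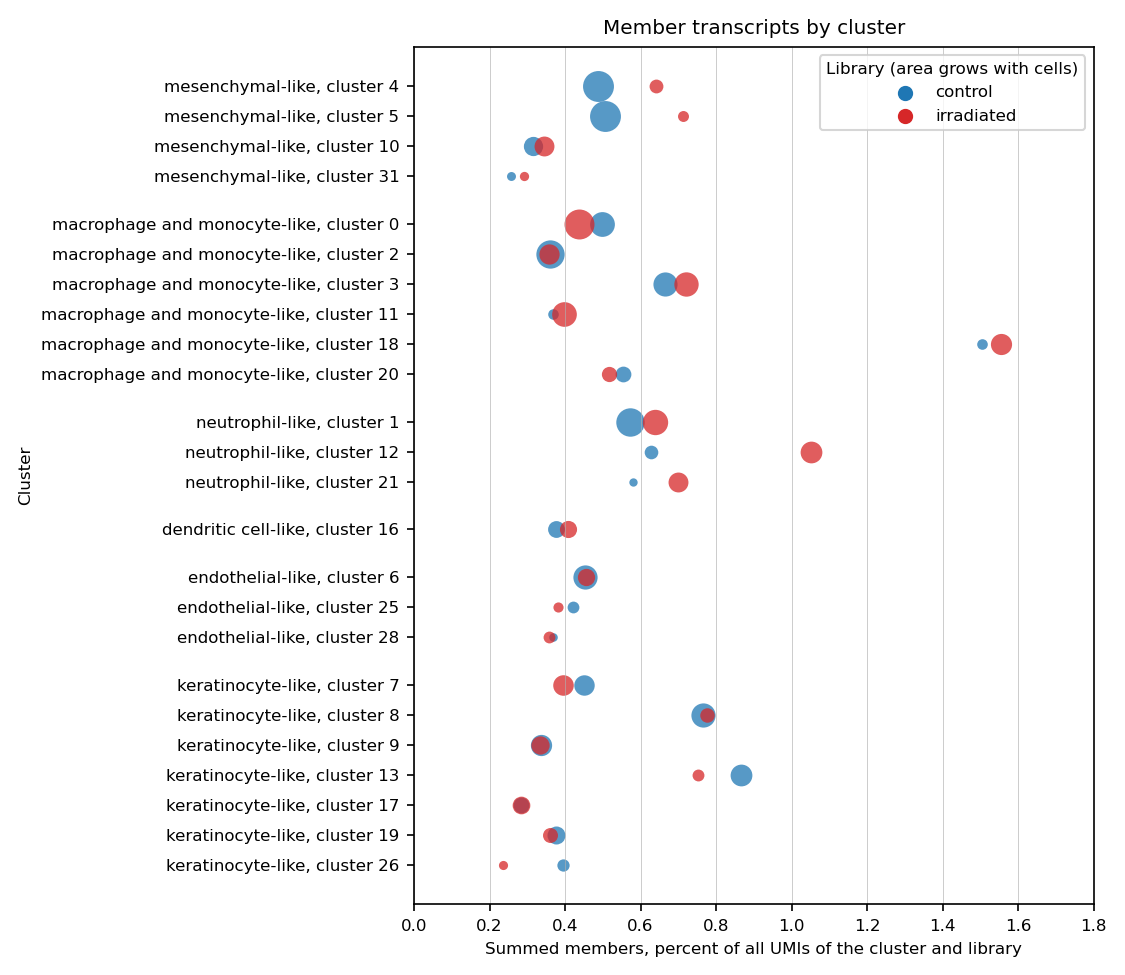
Summed UMIs of the 38 genes as a percent of all UMIs in each cluster of the 6 compared classes (control blue, irradiated red, area growing with the number of cells). Macrophage and monocyte-like cluster 18 lies at 1.5% and 1.56%, and mesenchymal-like clusters 4 and 5 and neutrophil-like cluster 12 lie further right in the irradiated library.

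In mesenchymal-like cells, the class from which ectopic cartilage and bone arise in this injury, a few HIF-induced members were called higher in irradiated cells, led by Car9 and Adm. Of 38 genes 6 were called higher and 1 lower, with a median of 0.19, against 12.9% and 7.14% of all 16846 genes and a median of -0.03, so the share called higher (15.8%) was near the background over the whole class. Adm had 14.6 and 54.3 CPM (1.90, interval 1.75 to 2.04). Car9 had 2.02 and 7.81 CPM (1.95), Egln3 2.31 and 5.4 CPM (1.23) and Ndrg1 97.6 and 184 CPM (0.92). Ankrd37 (0.74) and Hk2 (0.59) completed the genes called higher, and Ldhb was called lower (-0.79). Bnip3 (0.50), Ddit4 (0.47), Epas1 (0.23), Ldha (0.21), Pgk1 (0.18), Slc2a1 (0.15), Slc2a3 (0.04), Pdk1 (-0.27) and Hif1a (-0.44) were not called.

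The makeup of the class differed between the libraries, and within 2 of its clusters more members were called. Cluster 10, led by Clec3b, Cfd and Pi16 and the largest in the irradiated library, held 14.8% of the class in control and 58.8% in irradiated samples, and its members took only 0.316% and 0.344% of UMIs. Cluster 5, with Sfrp2, Ptx3 and Acan among its leading genes, held 41.9% and 11.7% (832 and 63 cells). In cluster 5, 15 of 37 genes were called higher and 2 lower, against 7.85% and 8.59% of all genes, and the members' share was 0.505% and 0.713%. In cluster 4, the largest in the control and led by Crabp1, Cxcl5 and Lrrc15, 9 of 37 were called higher and 1 lower, against 9.46% and 5.98%. In cluster 10, 1 of 36 was called higher and 1 lower, against 6.25% and 5.91%.

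Individual genes divided among these clusters. Bnip3 had 45.4 and 90.1 CPM in cluster 5 (0.99) and 26.2 and 46.7 CPM in cluster 4 (0.84). Pgk1 had 197 and 342 CPM in cluster 5 (0.79) and 232 and 348 CPM in cluster 4 (0.59), but 97.7 and 103 CPM in cluster 10. Ldha was called higher in cluster 5 only, at 329 and 553 CPM (0.75). Car9 had 3.15 and 33.6 CPM in cluster 5, and without that cluster its ratio over the class was -0.04. Adm was instead called in cluster 10 (42.1 and 102 CPM) and cluster 4 (9.26 and 16.8 CPM) and stood at 13.4 and 12.7 CPM in cluster 5. Hif1a, lower over the class, had 800 and 724 CPM in cluster 5, 555 and 516 in cluster 4 and 356 and 346 in cluster 10. Cells of the irradiated class were few, and markers listed for other classes were higher in it. Neutrophil markers had 166 and 535 CPM (11 of 12 called higher) and macrophage markers 421 and 845 CPM (15 of 17). Fat cell markers had 88.9 and 601 CPM (8 of 8), but Cfd and Car3 of that list are also leading genes of cluster 10. The part of these markers in the result was not tested.

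Of 32 further HIF-induced genes 7 were called higher and 0 lower in mesenchymal-like cells, led by Pgf (1.5), Stc2 (1.35) and Vegfa (1.19), growth factors and a secreted hormone-like protein. Vegfa had 38 and 86.9 CPM. Slc2a9 (2.14) and Gpd1 (2.12) were called higher and Pgam2 (-1.35) and Pygb (-0.69) lower among 21 glycogen and hexose genes. Pdk3 was called lower (-0.67). No pentose phosphate enzyme of 7 and no HIF partner of 10 was called.

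**Figure D5:**
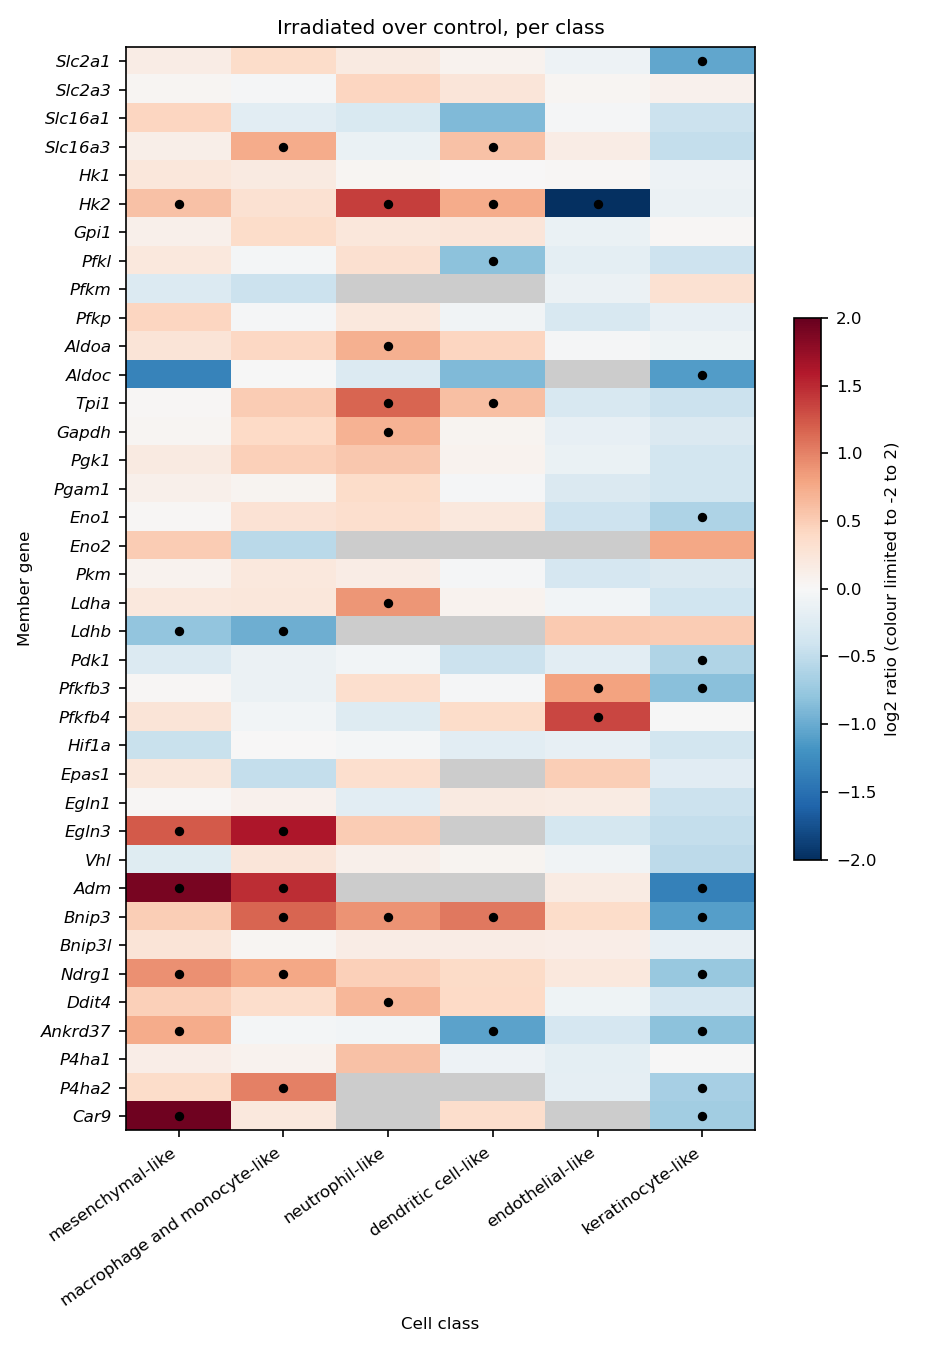
Log2 ratio of irradiated over control for each gene (rows) in 6 classes (columns), red for higher and blue for lower, colour limited to -2 to 2, dots for genes called by the 1.5-fold rule and grey for genes under 20 UMIs. All 11 dots of the keratinocyte-like column are blue and all 7 of the neutrophil-like column are red.

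In irradiated neutrophil-like cells 5 enzymes of glycolysis and lactate formation (Hk2, Tpi1, Aldoa, Gapdh and Ldha) were called higher, and the others measured were not. Of 32 genes measured 7 were called higher and 0 lower, with a median of 0.33, against 4.94% and 27.6% of all 9073 genes and a median of -0.37. Pfkm, Eno2, Ldhb, Adm, P4ha2 and Car9 were under 20 UMIs. Hk2 had 36.6 and 95.2 CPM (1.38, interval 1.06 to 1.72), and Tpi1, triose phosphate isomerase, 96.5 and 216 CPM (1.16, interval 0.96 to 1.37). Bnip3 (0.90), Ldha (0.89, 277 and 512 CPM), Aldoa (0.72), Gapdh (0.69) and Ddit4 (0.66) were also called. Pgk1 (0.54), Egln3 (0.51), Ndrg1 (0.47), Slc2a3 (0.44), Epas1 (0.34, on 6 and 17 UMIs), Slc2a1 (0.17), Hif1a (-0.05) and Pdk1 (-0.06) were not. Median-of-ratios scaling moves all genes by 0.37 and gave 18 higher and 0 lower.

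Within the class, more members were called in cluster 12, which is led by Ccl3, Ccl4 and Cxcl2, chemokines of activated neutrophils. It held 14.7% of control and 31.1% of irradiated neutrophil-like cells (123 and 388 cells). There 15 of 29 genes were called higher and 0 lower, against 4.67% and 9.77% of all genes, and the members took 0.626% and 1.05% of UMIs. Tpi1 had 148 and 449 CPM (1.60), Gapdh 1090.2 and 2222 CPM (1.03) and Eno1 217 and 427 CPM (0.98) in cluster 12. In cluster 1, which held 83.4% and 43.6% of the class, 1 of 30 was called higher (Hk2, 33.3 and 58.1 CPM, 0.80) and 0 lower, against 2.74% and 21.3%. Cluster 21 held 1.92% of control and 25.4% of irradiated neutrophil-like cells (16 and 317 cells), too few in the control to be compared. Without cluster 21, 10 genes were called higher and 0 lower. Depth was low in this class, with medians of 2107 and 3114 UMIs. Keratinocyte markers (1757 and 561 CPM) and mesenchymal markers (872 and 183 CPM) were lower in irradiated neutrophil-like cells, and their part in the result was not tested.

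Of the wider lists in neutrophil-like cells, the genes called lower are read against the 27.6% of all genes called lower in this class. Tkt (-1.13), Pgls (-0.91) and Pgd (-0.69) were called lower of 7 pentose phosphate enzymes, and Pdhb (-1.01) and Pdha1 (-0.96), subunits of pyruvate dehydrogenase, of 7 mitochondrial genes, the last near the share over all genes. Bpgm (-1.16) and Gpd2 (-0.79) were called lower among hexose genes, and Cul2 (-1.06) and Rbx1 (-0.72), parts of the ubiquitin ligase that holds Vhl, among HIF partners. Of 24 further HIF-induced genes 5 were called higher, led by Fam162a (1.31), Hilpda (1.20) and Ero1l (1.05), and 3 lower (Lox at -1.60, Tmem45a at -1.28 and Rora at -0.92). Over the 59 pathway genes this made 5 higher and 12 lower, and 15 and 4 under median-of-ratios scaling, so the direction of the pathway lists depends on the scaling.

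Endothelial-like cells showed few called members, a hexokinase and the 2 regulators of phosphofructokinase. Of 35 genes 2 were called higher and 1 lower, with a median of -0.10, against 8.09% and 5.96% of all 13883 genes and a median of 0.00. Hk2 had 7.25 CPM on 86 UMIs in control and 0.854 CPM on 5 UMIs in irradiated cells (-3.08, interval -4.74 to -1.81). Hk1, the constitutive hexokinase, made up 93.8% and 99.2% of the UMIs of the pair, so Hk2 is a small part of hexokinase transcripts in this class. Pfkfb4 had 4.72 and 12 CPM (1.34) and Pfkfb3 38.6 and 67.3 CPM (0.80).

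The clusters of the class did not carry these alike. Hk2 was called lower in cluster 6 (4.28 and 0.693 CPM) and in cluster 25 (20.6 and 2.52 CPM), where 5.31% and 10.8% of all genes were called lower. These levels rest on 41 and 3 UMIs in cluster 6 and on 44 and 2 UMIs in cluster 25. Cluster 25 is mixed, with 2 endothelial and 2 pericyte and smooth muscle markers among its 10 leading genes against all other cells. Pericyte and smooth muscle-like cells had 45.1 and 40.0 CPM of Hk2, and their part in the lower Hk2 was not tested. Pfkfb3 had 34.5 and 35.3 CPM in cluster 6, which held 83.1% of control and 63.9% of irradiated cells, and was called higher in cluster 25 (54.3 and 159 CPM) and cluster 28 (72.5 and 158 CPM), where 10.3% and 5.49% of all genes were called higher. Cluster 28 was 3.38% of control and 22.8% of irradiated endothelial-like cells (20 and 81 cells), and its Pfkfb3 levels rest on 12 and 115 UMIs. Cluster 25 held 80 and 47 cells. Epas1 (0.49), Bnip3 (0.37), Ndrg1 (0.20), Slc2a3 (0.04), Ldha (-0.06), Ddit4 (-0.08), Slc2a1 (-0.10), Pgk1 (-0.13), Hif1a (-0.17), Pdk1 (-0.21) and Egln3 (-0.36) were not called.

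Summed mesenchymal markers in endothelial-like cells had 2713 CPM (control) and 529 CPM (irradiated), with 13 of 14 called lower and none at 0, and keratinocyte markers 932 and 240 CPM. Both of these classes had more Hk2 (70.8 and 97.2 CPM in control cells) than endothelial-like cells, and their part in the lower Hk2 was not tested. Of 32 further HIF-induced genes 3 were called higher, among them Vegfa (0.70) and Pgf (0.59), and 5 lower, led by Car12 (-4.19, on 37 and 1 UMIs), Lox (-1.83) and Loxl2 (-1.46). Slc2a9 (1.8) and Bpgm (0.69) were called higher and Pdk3 (-0.67) lower.

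Dendritic cell-like cells, 213 and 223 in number, had 4 of 31 genes called higher and 2 lower, with a median of 0.07, against 6.52% and 6.08% of all 9461 genes and a median of -0.03. Bnip3 had 12.6 and 26.2 CPM (1.06), Hk2 58.5 and 98.0 CPM (0.74), Tpi1 81.4 and 124 CPM (0.60) and Slc16a3 45.9 and 69.2 CPM (0.59). Ankrd37 (-1.07, on 28 and 17 UMIs) and Pfkl (-0.81) were called lower. Pfkm, Eno2, Ldhb, Epas1, Egln3, Adm and P4ha2 were under 20 UMIs. With a minimum of 100 UMIs, 3 genes were called higher and 0 lower. Haemoglobin and other erythroid markers had 9.84 and 1488 CPM and neutrophil markers 928 and 1902 CPM in this class, and their part in the result was not tested. Of the pentose phosphate enzymes G6pdx (-1.15), Pgd (-0.75) and Rpe (-0.64) were called lower, and of 23 further HIF-induced genes Hilpda (0.80), Cxcr4 (0.71) and Vegfa (0.70) were called higher and 4 lower, led by Slc6a8 (-2.85), Hmox1 (-1.47) and Insig2 (-0.85).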

How the data were processed

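The authors deposited raw UMI counts per gene and barcode for both libraries, with no normalisation, made with Cell Ranger 5 and mm10 per the submitters' processing notes (5.0.1 per the file headers). Other filters are not given in the sources used here. The 38 genes, the wider pathway lists (86 genes, textbook knowledge) and the markers were chosen with earlier results of these data known.

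Cells were kept with at least 500 genes, 1000 UMIs and at most 10% mitochondrial UMIs. Barcodes with a Scrublet score above 0.25 were left out as doublets (5.00% of control and 1.75% of irradiated barcodes). Both libraries were clustered together with scanpy 1.11.5 (counts per 10000, 2000 variable genes, 30 components, 15 neighbours, leidenalg 0.10.2, resolution 1) into 35 clusters. A cluster was named from at least 3 markers at 50 CPM and 2-fold over the median cluster, a rule set after the clusters were seen. Cluster 15 has 6 tendon markers among its 10 leading genes against all other cells and was named tendon cell-like for that reason. Over the median cluster, 1 of its 10 leading genes is a tendon marker and 5 are mesenchymal markers. UMIs were summed per class and library, and classes were compared where both libraries held 200 or more of their cells. Genes needed 20 UMIs, and with 1 library per group no p-value was computed. Intervals (95%, exact) cover counting error only, and a count of 0 allows up to 3 counts. In each comparison the text names up to 4 called genes per direction with the largest ratio, a fixed set of 12 genes, and up to 3 called genes per pathway list and direction. The values of 1 pathway gene are not reported here. Alternatives are given in the closing section. Python 3.11.15, numpy 2.4.6, scipy 1.17.1 and pandas 2.3.3 were used.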

Additional observations from a re-analysis of the deposited data

Results flagged for a closer look

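For 8 genes the irradiated over control ratio was called in opposite directions in different classes. With 1 library per group none of these differences was tested. Hk2 was higher in mesenchymal, neutrophil and dendritic cell-like cells and lower in endothelial-like cells, with a gap of 4.46 on the log2 scale between neutrophil-like (1.38) and endothelial-like cells (-3.08). Adm differed by 3.24 between mesenchymal-like (1.90) and keratinocyte-like cells (-1.34), Car9 by 2.66 (1.95 and -0.70) and Ndrg1 by 1.68 (0.92 and -0.76) between the same classes. Bnip3 differed by 2.26 (1.16 and -1.11) and P4ha2 by 1.68 (1.01 and -0.66) between macrophage and monocyte-like and keratinocyte-like cells. Ankrd37 differed by 1.81 between mesenchymal-like (0.74) and dendritic cell-like cells (-1.07), and Pfkfb3 by 1.64 between endothelial-like (0.80) and keratinocyte-like cells (-0.83). Adm and P4ha2 in macrophage and monocyte-like cells rest on cluster 18, and Car9 in mesenchymal-like cells on cluster 5. Bnip3 in macrophage and monocyte-like cells was also not called without cluster 18, though it was called higher within clusters 2 and 3. Hk2 in endothelial-like cells was called lower in cluster 6 and in cluster 25, which also had pericyte markers among its leading genes.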

How the results depend on the processing

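No paired analysis was possible because each group has 1 library. Of 1638 gene ratios recomputed under other settings 1203 stayed within the counting interval and 432 moved further. The other 3 were ratios of called genes that changed sign. These were Adm (-0.16) and P4ha2 (-0.49) in macrophage and monocyte-like cells without cluster 18, and Car9 (-0.042) in mesenchymal-like cells without cluster 5. Sign changes of genes that were not called were not counted apart. Settings that leave out a cluster were chosen after seeing the data. A 2-fold rule calls fewer genes by construction: 4 in macrophage and monocyte-like, 4 in keratinocyte-like, 3 in mesenchymal-like, 2 in neutrophil-like and 2 in dendritic cell-like cells, 13 and 5 for keratin-high over keratin-low in the control and irradiated library, and 7 and 1 for irradiated over control in keratin-high and keratin-low cells; of the wider pathway lists it calls 8, 7, 9, 4 and 3 in macrophage and monocyte-like, mesenchymal-like, neutrophil-like, endothelial-like and dendritic cell-like cells. Members called in macrophage and monocyte-like cells, 7 in all, became 2 with clusters weighted alike, 11 without cluster 3 and 3 without cluster 18. The 11 of keratinocyte-like cells became 6 with clusters weighted alike and 6 without cluster 13, and the 5 of keratin-low cells 3 with clusters weighted alike. The 7 of neutrophil-like cells became 18 under median-of-ratios scaling, and the 6 of dendritic cell-like cells 3 with at least 100 UMIs. With automatic doublet thresholds no cluster was named dendritic cell-like, and keratin-high cells of the irradiated library outside cluster 13 were too few, so neither gave a value. Beyond what each setting does by construction, the cause of these changes was not tested. Depth limits neutrophil-like cells and genes under 20 UMIs.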
